A study of Mus musculus with 9 samples.

Results

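Genes of the insulin and insulin-like growth factor (IGF) system were measured in RNA pulled down with tagged ribosomes from adipose tissue, a capture aimed at endothelial cells. The 9 genes were chosen by name, as the rows of the deposited table that carry the gene identifiers of 2 receptors (Insr and Igf1r), 2 receptor substrates (Irs1 and Irs2), 1 ligand (Igf1) and 4 secreted binding proteins (Igfbp3, Igfbp4, Igfbp5 and Igfbp7). All 9 were present among the 11802 genes listed. The libraries labelled WT (4 libraries) came from mice of the genotype Pdgfb-iCreERT2:Rpl22HA, and those labelled KO (5 libraries) from Pdgfb-iCreERT2:Mfn2ideltaEC:Rpl22HA mice, in which endothelial Mfn2 is given as absent. Mfn2 encodes mitofusin 2, a protein of the outer mitochondrial membrane that joins mitochondria. Both groups carried the Cre driver and the tagged ribosomal protein Rpl22HA, so that ribosomes of Pdgfb-expressing cells of white adipose tissue, mainly endothelial, were pulled down with an antibody to the tag. The labels give no age, sex or induction scheme, and they call the replicates biological without saying which animal each came from. The p-values thus rest on the spread among libraries, which may be partly technical.

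Insulin and IGF1 act through a pair of related receptor tyrosine kinases, the insulin receptor and the IGF1 receptor. Both kinases phosphorylate the docking proteins IRS1 and IRS2, which recruit PI3-kinase and start the AKT and mTOR arms of the pathway. In endothelium this route is known for activating nitric oxide synthase and for carrying insulin across the vessel wall, while IGF-binding proteins hold IGF outside the cell and set how much of it reaches a receptor.

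Promoter windows are shown for the genes on which the results turn: Igf1r and Igfbp4, which passed the test in the deposited values, and the substrates Irs1 and Irs2, which were low in the same libraries. Each window is the 250 bases before the transcription start that RefSeq annotates (GRCm38.p6), written 5′ to 3′ on the strand of the gene. Capitals mark the GC box (GGGCGG), the CCAAT box (CCAAT), the TATA box (TATAAA) and the E-box (CACGTG), each searched on both strands, and no marked match overlaps another.
Igf1r (chr7:67952007-67952256, plus strand): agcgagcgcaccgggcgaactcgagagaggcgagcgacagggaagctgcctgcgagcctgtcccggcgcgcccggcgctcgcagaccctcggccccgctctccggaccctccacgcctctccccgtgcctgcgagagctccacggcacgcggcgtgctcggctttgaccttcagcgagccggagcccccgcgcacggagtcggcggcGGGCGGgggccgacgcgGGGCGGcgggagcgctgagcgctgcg
Igfbp4 (chr11:99040994-99041243, plus strand): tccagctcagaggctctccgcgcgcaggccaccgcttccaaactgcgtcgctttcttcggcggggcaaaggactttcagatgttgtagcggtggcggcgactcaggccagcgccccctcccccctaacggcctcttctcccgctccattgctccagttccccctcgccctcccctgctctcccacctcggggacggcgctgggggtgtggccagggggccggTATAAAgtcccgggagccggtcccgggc
Irs1 (chr1:82291440-82291689, minus strand): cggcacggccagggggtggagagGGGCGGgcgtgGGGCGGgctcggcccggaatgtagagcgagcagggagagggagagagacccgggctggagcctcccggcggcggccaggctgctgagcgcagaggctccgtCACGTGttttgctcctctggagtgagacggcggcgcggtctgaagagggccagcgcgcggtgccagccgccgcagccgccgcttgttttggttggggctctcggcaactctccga
Irs2 (chr8:11008930-11009179, minus strand): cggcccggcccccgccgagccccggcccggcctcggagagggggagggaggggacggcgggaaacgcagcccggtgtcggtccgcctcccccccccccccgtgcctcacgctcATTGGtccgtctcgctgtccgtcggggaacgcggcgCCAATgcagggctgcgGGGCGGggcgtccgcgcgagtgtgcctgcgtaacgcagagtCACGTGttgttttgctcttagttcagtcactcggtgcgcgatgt
Both substrate windows held an E-box, 115 bases before the start in Irs1 and 44 bases before it in Irs2, against 6.02% of 32851 windows of the same length in the RefSeq table. Irs1, Irs2 and Igf1r held GC boxes, as did 32.7% of windows, and Irs2 also held a pair of CCAAT boxes (33.9% of windows). The only TATA box among the 8 windows in the table was that of Igfbp4, 28 bases before its start (12.4% of windows). The FOXO core motif TGTTTAC was in none of the 8 windows and in 3.17% of all windows. Its shorter form TGTTT, not marked above, was in the windows of Igf1, Irs1 and Irs2 and in 46.4% of all windows. Igf1r had 42 CpG dinucleotides in its window, Irs2 34, Irs1 28 and Igfbp4 22, where the median window had 6. RefSeq places the starts of Igf1r and Irs2 570 and 471 bases upstream of the GENCODE M21 gene start, and that of Irs1 23 bases upstream. These are letter matches and describe no binding.

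Levels are in CPM, reads of a gene scaled to a common library total. The libraries held between 1034753 reads (WT replicate 4) and 3829356 reads (KO replicate 5). The level of Mfn2 did not follow the labels, at 36.1 ± 15.0 CPM (SD, n = 4) in WT and 66.7 ± 37.0 CPM (SD, n = 5) in KO, with a relative change of −0.16 (limma adjusted p = 0.898). A count over the whole gene need not show the loss of a part of it, so this tests neither the deletion nor the labels. Every direction below rests on the labels. The mitochondrial ribosomal RNAs took 13.9% to 64.8% of reads in the libraries labelled WT and 12.8% to 25.2% in those labelled KO, and WT replicate 4 was the WT library with the low share. In the deposited CPM, 32.0% of all genes were called higher in KO and 0.203% lower (limma, adjusted p under 0.05), with a median log2 fold change of 1.10 over all genes. Each gene is therefore also given relative to its library, as log2(CPM + 1) minus the library's median over all genes. On that scale 0.0339% of genes were called higher and 0.0763% lower, and the median over all genes was 0.12. Endothelial markers were all present (15 of 15, none at 0 in any library) and summed to 1075 to 3746 CPM in WT and 3230 to 7526 CPM in KO, led by Kdr (820 CPM on average over the 9 libraries) and Vwf (609 CPM). Some markers of other cell types were more abundant, among them the fibroblast genes Col3a1 (2836 CPM) and Col1a1 (1561 CPM). The presence of endothelial markers thus does not measure how far the captures were endothelial.

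Of the 9 insulin and IGF genes, 2 rose in the deposited CPM and none fell. That is 22.2%, against 32.0% of all genes called higher. The 2 were the receptor gene Igf1r and the binding protein gene Igfbp4. Relative to the library medians none of the 9 passed the test in either direction with limma. On the recovered reads none passed with edgeR, which called 0.00847% of all genes higher and 0.0339% lower, or with DESeq2, which called 0.357% and 1.38% of the genes it tested. At an unadjusted p under 0.05 there was 1, Igf1r, where 5.99% of all genes lay higher and 5.69% lower at that level. The median log2 fold change of the 9 was 0.92 in the deposited values and −0.06 relative to the library medians, with 4 genes above 0 and 5 below. Over all genes 57.9% lay above 0 and 42.1% below on that scale, and 94.6% above and 5.45% below in the deposited values, where all 9 lay above. In none of the 9 were the CPM of the groups apart, while the libraries labelled KO lay wholly above those labelled WT in 18.7% of all genes and wholly below in 0.0254%. Relative to the library medians the groups overlapped for all 9 as well, where they lay apart in 2.07% of all genes upward and in 1.74% downward. Bulk captures cannot tell fewer cells of a type from less RNA per cell.

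**Figure D1:**
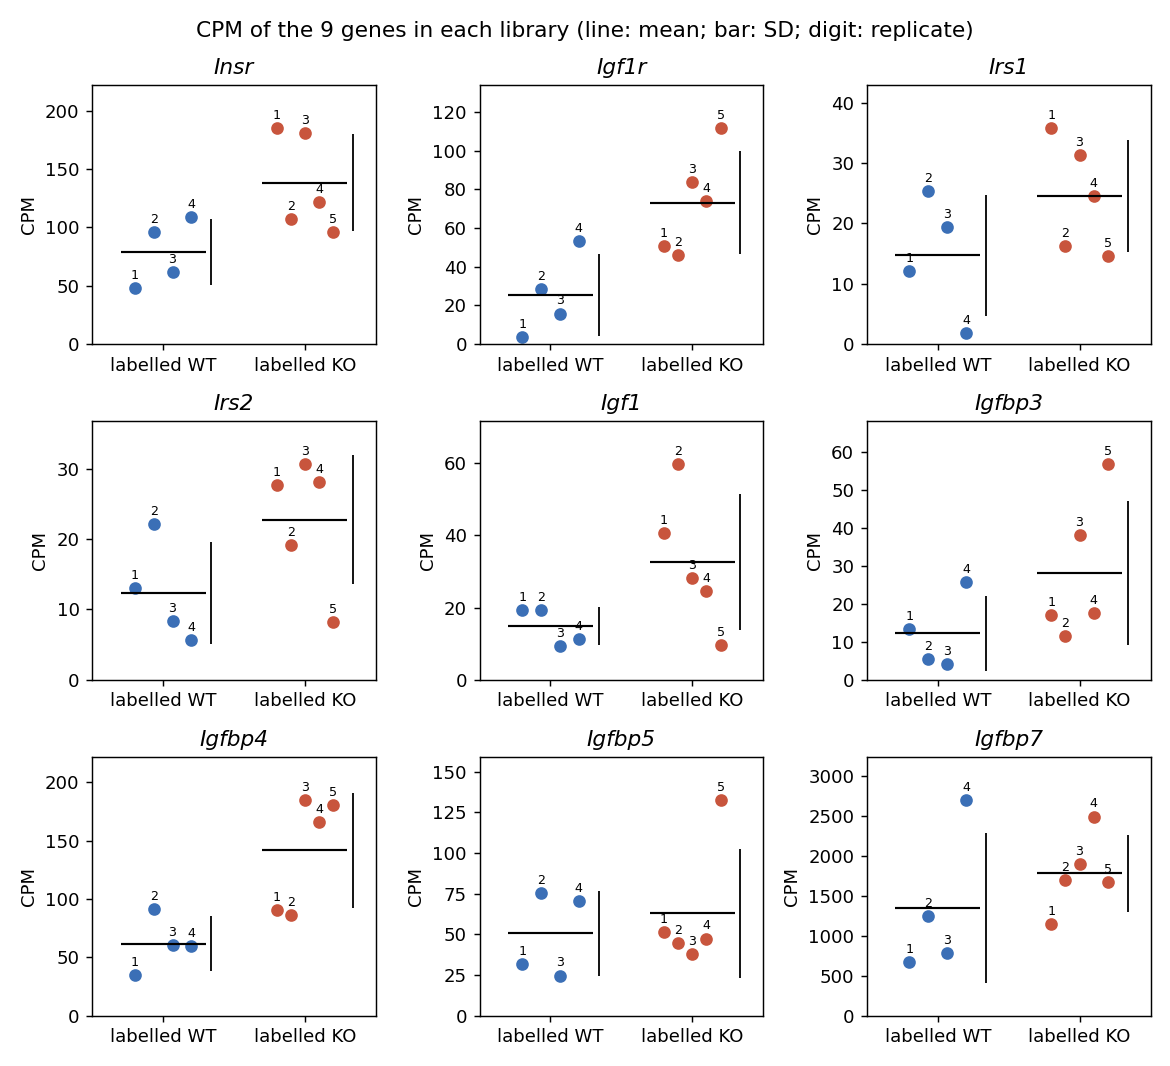
CPM of the 9 genes in each library (vertical axis, starting at 0), with 4 libraries labelled WT in blue and 5 labelled KO in red. Lines are means, bars are SD and digits are replicate numbers. The groups overlap in every panel, and KO replicate 5 lies highest for Igf1r, Igfbp3 and Igfbp5 but lowest among KO for Insr, Irs1, Irs2 and Igf1.

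The insulin receptor gene Insr (ENSMUSG00000005534; GRCm38 chromosome 8, 3122061 to 3279617, minus strand) was at 48.2, 95.7, 62.0 and 109 CPM in WT replicates 1 to 4. In KO replicates 1 to 5 it was at 185, 108, 181, 122 and 96.2 CPM. KO replicates 1 and 3 were high, while KO replicates 2 and 5 lay within the WT range. The means were 78.8 ± 28.5 CPM (SD, n = 4) and 138 ± 41.8 CPM (SD, n = 5). The log2 change was 0.83 (limma SE 0.403, adjusted p = 0.0949) in the deposited values. Relative to the library medians it was −0.15, with a 95% interval from −0.76 to 0.46 (limma adjusted p = 0.882). Insr was the steadiest of the 9 relative to its library, with a root mean square deviation of 0.35 (log2) about its own mean. Without WT replicate 4, Insr passed the test in the deposited CPM (log2 fold change 1.01, limma adjusted p = 0.0293). That fit called 5916 of the 11802 genes higher, and 5 of the 9.

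The IGF1 receptor gene Igf1r (ENSMUSG00000005533; chromosome 7, 67952827 to 68233668, plus strand) was at 3.60, 28.5, 15.8 and 53.2 CPM in WT replicates 1 to 4. In KO replicates 1 to 5 it was at 50.7, 45.9, 83.7, 73.8 and 112 CPM. WT replicate 1 was far below the other libraries, with 8 reads of Igf1r, and WT replicate 4 lay above KO replicates 1 and 2. Igf1r rose in the deposited values, from a mean of 25.3 ± 21.2 CPM (SD, n = 4) to one of 73.1 ± 26.6 CPM (SD, n = 5), a log2 change of 1.91 (limma SE 0.506, adjusted p = 0.00982). Relative to the library medians the change was 0.93 (SE 0.411, 95% interval 0.08 to 1.79), with an unadjusted p = 0.0339 and a limma adjusted p = 0.385. In limma, leaving out WT replicate 1 ended the deposited call (1.23, adjusted p = 0.0715), as did the fit in which the CPM were rescaled without the mitochondrial ribosomal RNAs (1.38, adjusted p = 0.0906). Of the endothelial markers, 13 of the 15 were called higher in the deposited CPM (86.7%, against 32.0% of all genes). The 15 relative changes were all above 0, with a median of 0.40, where 57.9% of all genes lay above 0. The part of these markers in the Igf1r result was not tested.

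The substrate gene Irs1 (ENSMUSG00000055980; chromosome 1, 82233101 to 82291416, minus strand) was at 12.2, 25.3, 19.4 and 1.90 CPM in WT replicates 1 to 4. In KO replicates 1 to 5 it was at 35.8, 16.3, 31.4, 24.6 and 14.7 CPM. WT replicate 4 held only 2 reads of Irs1, which allow 0.230 to 6.87 CPM (95% exact binomial interval, counting error only), below the lower bound of every other library (8.01 CPM in WT replicate 1 was the nearest). The means were 14.7 ± 10.1 CPM (SD, n = 4) and 24.5 ± 9.22 CPM (SD, n = 5), with a log2 change of 1.01 (limma SE 0.560, adjusted p = 0.134). The relative change of Irs1 was 0.04, and its interval from −1.24 to 1.31 was the widest of the 9. It turned to −0.86 without WT replicate 4 (adjusted p = 0.441), and to −0.50 in both edgeR and DESeq2. The exons of Irs1 share 2822 bases with Gm9747 on the other strand, and without strand marking a read there cannot be assigned to either.

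Irs2, the other substrate gene (ENSMUSG00000038894; chromosome 8, 10984681 to 11008458, minus strand), was at 13.1, 22.2, 8.40 and 5.70 CPM in WT replicates 1 to 4. In KO replicates 1 to 5 it was at 27.6, 19.1, 30.7, 28.1 and 8.23 CPM. WT replicate 4 and KO replicate 5 were the lowest of their groups, as for Irs1. The means were 12.3 ± 7.22 CPM (SD, n = 4) and 22.7 ± 9.21 CPM (SD, n = 5). The log2 fold change of 0.86 (SE 0.537) did not pass the test (limma adjusted p = 0.179), and the relative change was −0.11 with an interval from −1.22 to 0.99 (adjusted p = 0.955). Without KO replicate 5 the relative change was 0.25.

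The ligand gene Igf1 (ENSMUSG00000020053; chromosome 10, 87858265 to 87937042, plus strand) encodes a growth factor that adipose stromal cells and macrophages also make. It was at 19.4, 19.4, 9.45 and 11.4 CPM in WT replicates 1 to 4. In KO replicates 1 to 5 it was at 40.7, 59.7, 28.1, 24.6 and 9.52 CPM. The first 4 KO replicates lay above every WT library and KO replicate 5 lay below 3 of the 4. The means were 14.9 ± 5.23 CPM (SD, n = 4) and 32.5 ± 18.8 CPM (SD, n = 5), with a log2 change of 0.92 (limma SE 0.514, adjusted p = 0.138) and a relative change of −0.06 (interval −1.15 to 1.04). KO replicate 2, which held the most Igf1, also had the highest sum of fibroblast markers (10 of 12 listed), at 12952 CPM, but KO replicate 5, which held the least Igf1 of the KO libraries, came next at 10114 CPM. The sums were 2776 to 9148 CPM in WT and 1884 to 12952 CPM in KO, and Mfap5 alone of the 10 was at 0 in some library. Relative to the library medians 9 of the 10 fibroblast changes lay below 0, with a median of −0.63, as did 7 of the 10 macrophage changes, with a median of −0.30. Of all genes 42.1% lay below 0 there. Macrophage markers (10 of 10 listed, Fcgr1 at 0 in 1 library) summed to 293 to 1138 CPM in WT and 718 to 1562 CPM in KO. Col3a1 and Col1a1 were the most abundant of the fibroblast genes (2836 and 1561 CPM on average), and Cd163 and C1qa of the macrophage genes (211 and 166 CPM). The part of these cells in the Igf1 level was not tested.

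Relative to their libraries, Irs1, Irs2 and Igf1 shared their low libraries across the labels. WT replicate 4 was the lowest WT library for all 3, at −2.56, −1.36 and −0.47, and KO replicate 5 was the lowest KO library, at −0.67, −1.43 and −1.24 (log2 relative to the library median). Insr was also lowest in KO replicate 5, at 1.96, but in WT its lowest library was replicate 3, at 2.59. Igfbp3 and Igf1r went the other way in KO replicate 5, at 1.22 and 2.18, each its highest value of the 9 libraries. Igfbp5 had its highest KO value there, at 2.42. Both libraries stood apart in the share of reads from Malat1, a nuclear noncoding RNA, in opposite directions. It was 18.4% in WT replicate 4 against 5.17% to 7.63% in the other WT libraries, and 1.21% in KO replicate 5 against 3.04% to 9.11% in the other KO libraries. Skeletal muscle markers summed to 6741 CPM in KO replicate 5, against 324 to 605 CPM in the other KO libraries and 50.9 to 141 CPM in WT (8 of 10 listed, Actn3 at 0 in some library, led by Myh4 at 503 CPM and Tnnt3 at 127 CPM on average). Mural markers (7 of 10 listed, none at 0, led by Myh11 at 181 CPM and Acta2 at 41.8 CPM) summed to 116 CPM in WT replicate 4, against 197 to 242 CPM in the other WT libraries and 298 to 574 CPM in KO. Adipocyte markers (12 of 12 listed, none at 0) summed to 4457 to 7983 CPM in WT and 10386 to 21501 CPM in KO. They were led by Fabp4 at 8442 CPM and Pck1 at 785 CPM on average. Relative to the library medians 8 of the 12 adipocyte changes lay below 0 and 4 above, with a median of −0.31. Of all genes 42.1% lay below 0 on that scale. The highest sum, in KO replicate 5, held 18869 CPM of Fabp4, while Pck1 had its lowest value there, 237 CPM. The mean of the 12 levels relative to the library median was lowest in KO replicate 5, at 2.57. Among the WT libraries that mean was lowest in WT replicate 4, at 2.82. The part of these cells and of Malat1 in the pattern was not tested.

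**Figure D2:**
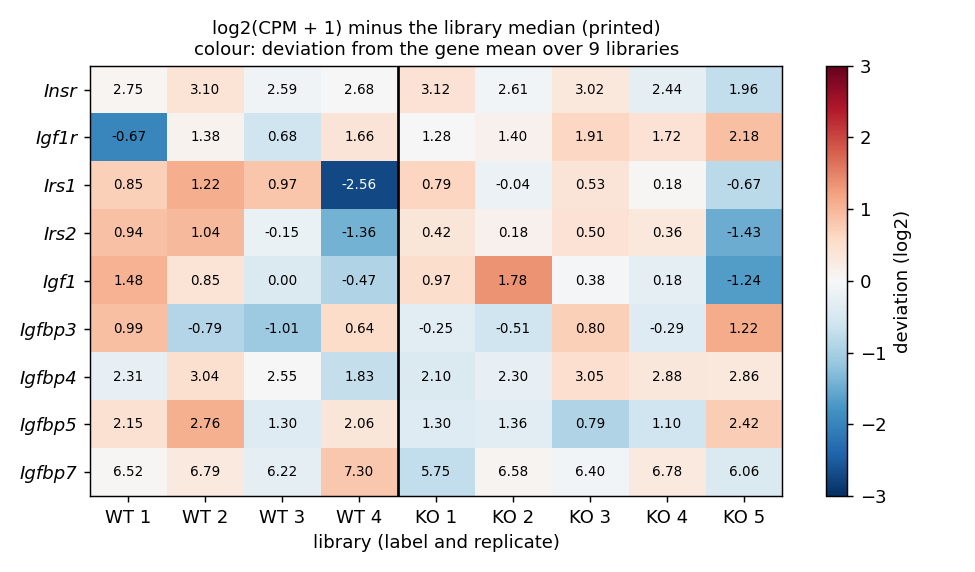
log2(CPM + 1) minus the library median for each gene (rows) and library (columns), printed in each cell, and coloured by its deviation from the gene's mean over the 9 libraries. The 3 most negative printed values in WT replicate 4 and KO replicate 5 belong to Irs1 (−2.56) and Irs2 (−1.36 and −1.43). Igf1 is printed at −1.24 in KO replicate 5, where its mean over the 9 libraries is 0.43. Igf1r is lowest in WT replicate 1 (−0.67).

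Among the binding proteins, Igfbp3 (ENSMUSG00000020427; chromosome 11, 7206086 to 7213923, minus strand) encodes the main carrier of IGF in blood. It was at 13.5, 5.54, 4.20 and 25.7 CPM in WT replicates 1 to 4 and at 17.0, 11.5, 38.2, 17.6 and 56.9 CPM in KO replicates 1 to 5. WT replicate 4 lay above 3 of the 5 KO libraries. The means were 12.2 ± 9.85 CPM (SD, n = 4) and 28.2 ± 19.0 CPM (SD, n = 5), with a log2 change of 1.21 (limma SE 0.559, adjusted p = 0.0797) and a relative change of 0.24 (interval −0.81 to 1.29). Without WT replicate 4 Igfbp3 passed the test in the deposited CPM (1.65, limma adjusted p = 0.0181), in a fit that called 5916 of the 11802 genes higher.

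Igfbp4 (ENSMUSG00000017493; chromosome 11, 99041244 to 99054392, plus strand) encodes a binding protein that restrains IGF action until proteases cleave it. It was at 35.1, 91.8, 60.4 and 59.9 CPM in WT replicates 1 to 4 and at 90.8, 86.0, 185, 166 and 180.3 CPM in KO replicates 1 to 5. KO replicates 3 to 5 were well above all WT libraries, and KO replicates 1 and 2 lay just under WT replicate 2. Igfbp4 rose in the deposited values, from a mean of 61.8 ± 23.2 CPM (SD, n = 4) to one of 142 ± 49.2 CPM (SD, n = 5), a log2 change of 1.18 (limma SE 0.412, adjusted p = 0.0293). Relative to the library medians it was 0.21 (limma interval −0.44 to 0.85, adjusted p = 0.837), near the 0.12 of all genes. In limma this call ended when a single library was left out: WT replicate 1 (log2 change 0.94, adjusted p = 0.106), WT replicate 3 (1.199, 0.0620), KO replicate 3 (1.07, 0.0851), KO replicate 4 (1.11, 0.0736) or KO replicate 5 (1.08, 0.0680). It also ended after rescaling without the mitochondrial ribosomal RNAs (0.60, adjusted p = 0.256).

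Igfbp5 (ENSMUSG00000026185; chromosome 1, 72857932 to 72874884, minus strand) encodes a binding protein that attaches to extracellular matrix. It was at 31.5, 75.6, 24.7 and 70.3 CPM in WT replicates 1 to 4 and at 51.6, 44.4, 37.9, 47.4 and 133 CPM in KO replicates 1 to 5. KO replicate 5 stood alone and the other KO libraries lay inside the WT range. The means were 50.5 ± 26.1 CPM (SD, n = 4) and 62.8 ± 39.4 CPM (SD, n = 5), with the smallest deposited log2 fold change of the 9, 0.30 (limma SE 0.452, adjusted p = 0.569). Its relative change of −0.67 was the lowest of the 9 (interval −1.43 to 0.09, adjusted p = 0.493), and it was below 0 in all 18 alternative settings of that fit, from −0.93 to −0.44. The fibroblast markers had a like median on that scale (−0.63, with 9 of 10 below 0, against 42.1% of all genes), and their part in the Igfbp5 value was not tested.

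Igfbp7 (ENSMUSG00000036256; chromosome 5, 77349240 to 77408041, minus strand) encodes a secreted protein of vascular basement membrane that binds IGF weakly. It was at 669, 1246, 778 and 2697 CPM in WT replicates 1 to 4 and at 1147, 1692, 1898, 2488 and 1665 CPM in KO replicates 1 to 5. WT replicate 4 held the highest value of all 9 libraries, and of the other WT libraries only replicate 2 lay above any KO library, KO replicate 1. The means were 1348 ± 934 CPM (SD, n = 4) and 1778 ± 484 CPM (SD, n = 5), with a log2 change of 0.58 (limma SE 0.465, adjusted p = 0.288) and a relative change of −0.39 (interval −1.08 to 0.30, adjusted p = 0.688). Without WT replicate 4 the deposited change was 0.99 (limma adjusted p = 0.0334), in a fit that called 5916 of the 11802 genes higher. Igfbp7 shares 85 exonic bases with Polr2b on the other strand, which averaged 33.7 CPM.

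**Figure D3:**
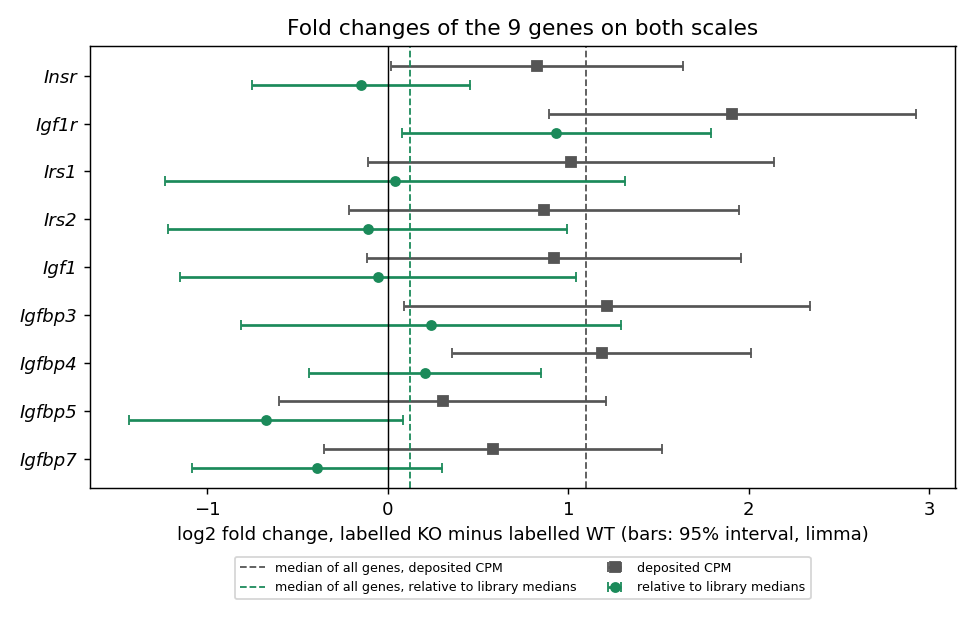
log2 fold changes of the 9 genes (horizontal axis, KO minus WT) in the deposited CPM (grey squares) and relative to the library medians (green circles), with 95% limma intervals, and dashed lines at the median of all genes on each scale (1.10 and 0.12). Every interval but that of Igf1r spans 0 on the relative scale.

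Per length, Igfbp7 stood far above the other 8 genes. As CPM per kilobase of merged exons, averaged over the 9 libraries, the levels were 1312 for Igfbp7, 24.0 for Igfbp4, 9.55 for Igfbp5, 8.14 for Insr, 6.75 for Igfbp3, 3.09 for Igf1r, 2.86 for Irs2, 2.49 for Igf1 and 2.21 for Irs1. Igfbp7 exceeded Igfbp4 per length in all 9 libraries, by 33.7-fold (KO replicate 5) to 164.5-fold (WT replicate 4) with a median of 49.6-fold, and lay above 99.7% of listed genes. Igfbp4 was above Igfbp5 in 9 of 9 libraries and Igfbp3 above Igf1r in 9 of 9. The other neighbours in that order were not set apart: Igfbp5 was above Insr in 4 of 9 libraries, Insr above Igfbp3 in 6, Igf1r above Irs2 in 3, Irs2 above Igf1 in 7 and Igf1 above Irs1 in 4. Over the 9 libraries Irs1 lay above 27.2% of listed genes, Igf1 above 30.8%, Irs2 above 34.9% and Igf1r above 37.4%. The order of these 4 means differed between the groups, but the spreads were wide and the order was not tested. In WT the CPM per kilobase were 1.504 ± 0.53 for Igf1, 1.505 ± 1.26 for Igf1r, 1.61 ± 1.10 for Irs1 and 1.95 ± 1.14 for Irs2 (SD, n = 4). In KO they were 2.68 ± 1.01 for Irs1, 3.28 ± 1.90 for Igf1, 3.60 ± 1.46 for Irs2 and 4.36 ± 1.59 for Igf1r (SD, n = 5).

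Ratios of CPM + 1 inside a library cancel most of its scaling, and none of the 4 ratios compared between the labels passed the test. The log2 ratio of Insr to Igf1r in WT replicates 1 to 4 was 3.42, 1.71, 1.91 and 1.02. In KO replicates 1 to 5 it was 1.85, 1.21, 1.10, 0.72 and −0.21. KO replicate 5 alone had a higher CPM for Igf1r than for Insr, but per kilobase of merged exons Insr was higher there too. All 5 KO values of the ratio lay below the WT mean, and WT replicates 2 and 4 lay within the KO range. The means were 2.02 ± 1.01 (SD, n = 4) and 0.93 ± 0.76 (SD, n = 5), a difference of −1.08 (exact two-sided permutation p = 0.111, adjusted p = 0.238 over 4 ratios). Without WT replicate 1 the difference was −0.62. The ratio of Igfbp5 to Igfbp4 was also below the WT mean in all 5 KO libraries, −0.36 ± 0.63 (SD, n = 4) against −1.25 ± 0.75 (SD, n = 5), a difference of −0.88 (exact permutation p = 0.119, adjusted p = 0.238). For Igfbp3 to Igfbp7 the difference was 0.63 (exact permutation p = 0.333, adjusted p = 0.444), and for Irs2 to Irs1 it was −0.15 (exact permutation p = 0.794, adjusted p = 0.794). The smallest p that the 126 splits of 9 libraries allow is 0.00794.

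**Figure D4:**
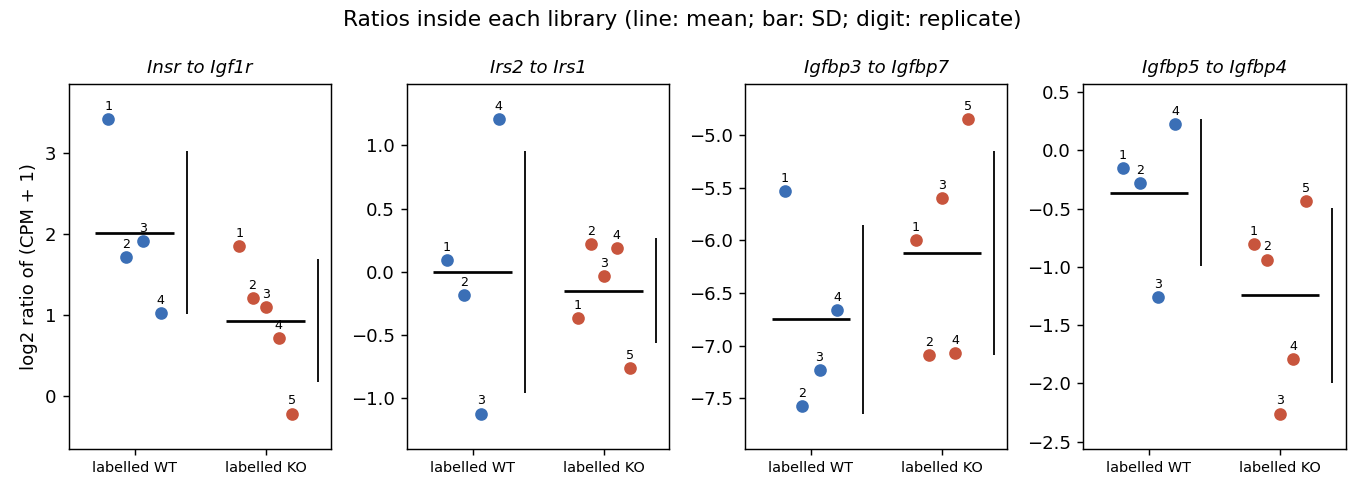
log2 ratio of (CPM + 1) for 4 gene pairs in each library (vertical axes differ between panels), with the 4 libraries labelled WT in blue, the 5 labelled KO in red, lines at the means and bars for SD. The ratio of Insr to Igf1r runs from 1.02 to 3.42 in WT and from −0.21 to 1.85 in KO, so the groups overlap.

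The genes whose levels ran most like each of the 9 were found by the root mean square difference of relative log2 values over the 9 libraries, each gene centred on its own mean. For Insr they were Nbr1 and Arap1 (0.15 for each, where the median gene differed by 0.73). For Igf1r they were Trappc9 (0.21) and Arf4 (0.24, median gene 0.99), and for Igfbp7 Srf (0.13) and S100a13 (0.17, median gene 0.78). Igfbp4 ran with Ist1 (0.17) and Tmem14c (0.21), and Igfbp5 with Rpe (0.30) and Bin1 (0.31). The difference was larger for Irs2 (Pex13, 0.32, and Mettl3, 0.36), Igfbp3 (Tmem63a, 0.31, and Emc4, 0.35), Igf1 (Slc38a6, 0.41, and Ccdc173, 0.42) and Irs1 (Farp1 and Dlst, 0.41 for each). These genes also varied more about their own means than Insr, Igfbp4 and Igfbp7 did. The nearest genes were picked from 9088 genes compared over 9 libraries. No other gene of the 9 was among these nearest genes. Of the 36 pairs within the 9, the smallest differences were Insr with Igfbp7 (0.54), Irs2 with Igf1 (0.55) and Insr with Igfbp4 (0.57). Irs1 with Irs2 came next (0.62). The measure is also small for 2 genes that each vary little, whether or not they move together. About their own means Insr, Igfbp4 and Igfbp7 had root mean square deviations of 0.35, 0.41 and 0.43. For Irs2, Igf1 and Irs1 these deviations were 0.85, 0.90 and 1.10.

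Other genes of the pathway were taken from 4 lists with 88 genes, of which 72 were in the table. In the deposited CPM 25 of the 72 were called higher and none lower (34.7%, against 32.0% of all genes), and relative to the library medians 1 was called higher, with 38 above 0, 34 below and a median of 0.05. Among 7 listed genes of other ligands, receptors and binders, 1 was called higher, the receptor gene Igf2r, whose product clears IGF2 and carries lysosomal enzymes. Igf2r was at 53.6, 76.4, 39.4 and 108 CPM in WT replicates 1 to 4 and at 196, 236, 267, 328 and 317 CPM in KO replicates 1 to 5. The lowest KO value exceeded the highest WT value, as in 18.7% of all genes, also on the relative scale, as in 2.07%. Its log2 change was 2.01 (limma SE 0.397, adjusted p = 0.00273) and its relative change 1.04 (limma SE 0.277, adjusted p = 0.146), and DESeq2 called it (adjusted p = 0.0487) while edgeR did not (0.205). Airn, a noncoding RNA of the opposite strand that overlaps the Igf2r locus, shares no exonic base with it and averaged 18.9 CPM. Htra1, a protease that cleaves IGF-binding proteins, had the lowest relative change of the 72, −0.99 (limma adjusted p = 0.305). Its relative levels in KO all lay below those in WT, as in 1.74% of all genes, and its deposited change was −0.014.

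Of 22 listed adaptors and inhibitors of the receptors, 7 were called higher in the deposited CPM (31.8%, against 32.0% of all genes). None was called relative to the library medians, with a relative median of 0.06. The ubiquitin ligase gene Nedd4 had a log2 fold change of 1.44 and a relative change of 0.46 (limma adjusted p = 0.531). For Grb10, an adaptor that inhibits both receptors, they were 1.59 and 0.61 (limma adjusted p = 0.557 for the relative change). Cav1, the caveolar coat gene, was at 1.36 and 0.38 (limma adjusted p = 0.611), and the AKT inhibitor gene Trib3, at 2.25 CPM in WT, was at 1.92 and 0.94 (limma adjusted p = 0.572).

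Of 24 listed genes of the PI3K and AKT arm, 11 were called higher in the deposited CPM (45.8%, against 32.0% of all genes). None was called relative to the library medians, with a relative median of 0.17 against 0.12 over all genes. Sgk1, a kinase related to AKT, was at 18.5, 35.6, 20.0 and 26.6 CPM in WT replicates 1 to 4. In KO replicates 1 to 5 it was at 86.8, 77.4, 197, 185 and 116 CPM. Sgk1 in KO lay wholly above WT, as did 18.7% of all genes. Its relative change was 1.32 (limma SE 0.330, adjusted p = 0.131), and DESeq2 called it (adjusted p = 0.0333) while edgeR did not (0.172). Pik3ca, the catalytic subunit of PI3-kinase, had a log2 fold change of 1.62 and a relative change of 0.65 (limma adjusted p = 0.595). Pik3r3, a regulatory subunit at 2.96 CPM in WT, had 2.25 and 1.28 (limma adjusted p = 0.471), and the AKT phosphatase gene Phlpp1 had 1.70 and 0.73 (limma adjusted p = 0.471).

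Of 19 listed genes of the mTOR arm, which hold parts of both mTOR complexes, 6 were called higher in the deposited CPM. That is 31.6%, against 32.0% of all genes, and the relative median was −0.07. Ddit4, whose product REDD1 restrains mTORC1, was the 1 gene of all 72 called on the relative scale. Ddit4 was at 36.0, 48.3, 13.1 and 32.3 CPM in WT replicates 1 to 4 and at 169.7, 189.7, 330.0, 237 and 300.2 CPM in KO replicates 1 to 5. Its relative change was 1.99 (limma SE 0.357, adjusted p = 0.0403), where DESeq2 called it (adjusted p = 0.00148) and edgeR did not (0.0769). A call held in 9 of 18 alternative settings, DESeq2 among them, with changes from 1.65 to 2.29 over all 18. It ended without a trend (adjusted p = 0.308), with a pseudocount of 0.5 (0.0562), and when WT replicate 1 (0.0708), WT replicate 3 (0.0975), WT replicate 4 (0.147), KO replicate 2 (0.0511), KO replicate 3 (0.119) or KO replicate 4 (0.0899) was left out.

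**Figure D5:**
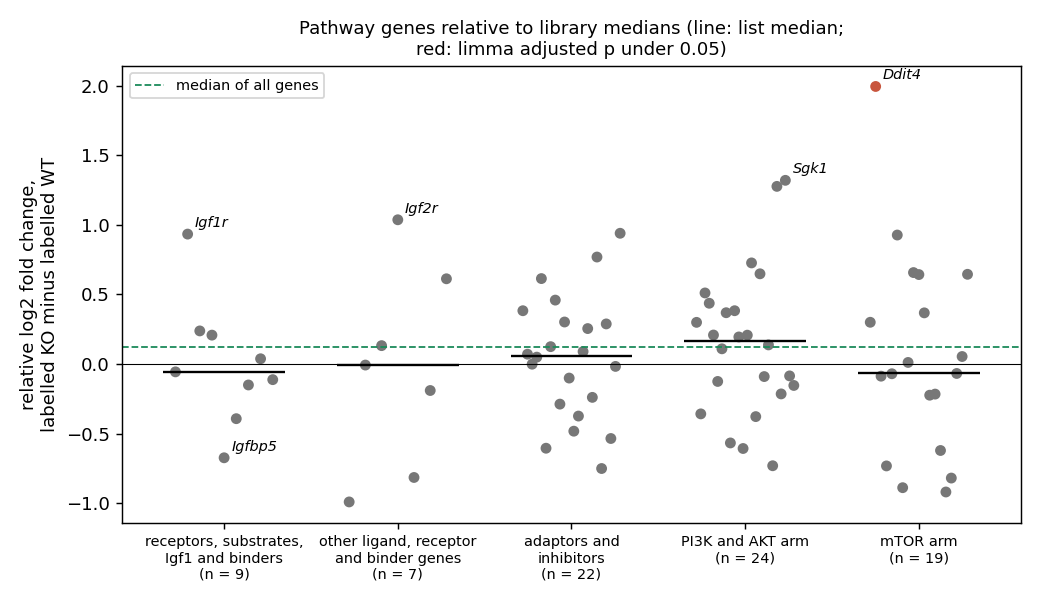
Relative log2 fold change (vertical axis, KO minus WT) of each listed gene in the 9 genes of interest and in 4 lists of other pathway genes, with a line at each list's median and a dashed line at the median of all genes (0.12). Ddit4 at 1.99 is the 1 point past the limma threshold, and Igf1r at 0.93 lies highest among the 9.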

How the data were processed

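RNA bound to HA-tagged ribosomes of white adipose tissue was sequenced in 9 libraries (4 WT, 5 KO), from 50 to 100 mg of tissue and 2 to 5 ng of RNA, per the labels' protocols. The authors deposited CPM for 11802 genes, reads scaled to a common library total. Tools listed in the submitters' processing notes, without their roles, are the aligner HISAT2 2.1.0, edgeR 3.32.0 with R 4.0.2, Trimmomatic 0.39 and FastQC 0.11.9, and the builds listed are GRCm38 and mm10. For the read counter, strand setting and filter on genes, the sources used here give nothing. The kit, per the labels' protocols, copies RNA into cDNA for tagmentation, and no strand marking is named.

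Symbols, coordinates and merged exon lengths came from GENCODE M21 (GRCm38), which matched 11787 identifiers. The CPM of each library were whole multiples of 1 step, so reads were recovered, with 100% of nonzero values within 0.1 read of a whole number. Listed reads ran from 1034753 to 3829356 per library.

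Limma 3.58.1 (R 4.3.3) was fitted with a mean-variance trend to log2(CPM + 1) of all genes, in the deposited values and after subtracting each library's median, with Benjamini-Hochberg adjustment over all genes and calls at an adjusted p under 0.05. Fold changes on this scale understate those of low genes. A mean CPM of at least 1 removed 0 genes. Ratios were compared by exact permutation over 126 splits. EdgeR 4.0.16 and DESeq2 1.42.0 on the recovered reads were alternatives, besides other pseudocounts, filters, normalisations, a replicate block and leaving out each library. The tests were checked on simulated data.

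The 9 genes, the lists, the ratios and the tests were chosen with earlier results of these data known. All 9 genes are named. For each pathway list, genes called on the relative scale are named, or else up to 4 called in the deposited CPM by smallest p, and for each marker list the 2 genes of highest mean CPM. Genes most like a member were the 2 nearest with a mean CPM of at least 5 and a symbol that is not a predicted-gene or clone name. Htra1, shown for its relative change, was chosen after its values were seen. Insr is not in the promoter table used.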

Additional observations from a re-analysis of the deposited data

Results flagged for a closer look

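In 44 groups of 4 or 5 values (CPM, relative levels and ratios of the 9 genes), 3 held a library whose gap to its neighbour was too large a part of the group's range by Dixon's test at the 95% level. Chance alone flags about 1 group in 20, and the tests share libraries.

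Irs1 relative to the library median was −2.56 in WT replicate 4, where the other WT libraries lay between 0.85 and 1.22. The value rests on 2 reads.

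Irs2 relative to the library median was −1.43 in KO replicate 5, below 0.18 to 0.50 in the other KO libraries. It rests on 32 reads.

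Igfbp5 was at 133 CPM in KO replicate 5 (132.73 CPM before rounding), above 37.9 to 51.6 CPM in the other KO libraries, from 516 reads.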

How the results depend on the processing

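The calls of Igf1r and Igfbp4 belong to the deposited scale: with the mitochondrial ribosomal RNAs left out of the CPM, 0 of the 9 genes were called and 21 and 4 of all genes were called higher and lower, against 3780 and 24. Of the 9, 1 was called without a trend and 1 with a replicate block, and 0 to 5 with each library left out. All genes called higher or lower on the deposited scale numbered 1094 to 5916 and 7 to 23 with each library left out, 1932 and 8 with the replicate block, and 10 lower without a trend. Same-numbered libraries did not deviate together (correlations from −0.04 to 0.04), so the numbers give no pairing. With the block KO replicate 5, which has no partner, drops out of the estimate, and Igf1r kept its call (1.74, adjusted p = 0.0183) while Igfbp4 lost it (1.08, adjusted p = 0.0755). Without a trend Igfbp4 also lost it (adjusted p = 0.0676).

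On the relative scale none of the 9 was called in any of the 18 alternatives, where all genes called higher and lower numbered 2 and 2 (pseudocount 0.5), 3 lower (mean CPM of at least 5), 0 and 0 (no trend), 8 and 30 (replicate block), 5 lower (quantile normalisation), 1 and 4 (edgeR), 29 and 112 (DESeq2, with no adjusted p for 3678 genes), and 0 to 21 and 0 to 106 with each library left out. The main counts were 4 and 9.

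Uncalled changes near 0 turned sign; the cause was not tested. On the deposited scale Igfbp5 was at −0.0047 with the block and −0.28 on rescaling, and at −0.0047 to 0.55 with each library left out, and Igfbp7 was at −0.014 on rescaling. On the relative scale a pseudocount of 5 gave Insr 0.030, Irs1 −0.041 and Igf1 0.028. The block gave Insr 0.017, Irs2 0.25, Igf1 0.36 and Igfbp3 −0.017. Irs1 was at −0.11 with quantile normalisation, −0.50 in edgeR and −0.50 in DESeq2, where Igf1 was at 0.0016 in edgeR and 0.00066 in DESeq2. Leaving out each library, the relative ranges were −0.27 to 0.017 for Insr, −0.86 to 0.41 for Irs1, −0.60 to 0.25 for Irs2, −0.40 to 0.36 for Igf1 and −0.084 to 0.58 for Igfbp3. The ratio of Irs2 to Irs1 ran from −0.52 to 0.25, and the other 3 ratios kept their sign in all settings.

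Depth limits Irs1, Irs2, Igf1, Igfbp3 and Igf1r, which had 2 to 30 reads in some WT libraries. Of the other pathway genes, the deposited calls of Igf2r, Sgk1 and Ddit4 held in all 16 alternatives, and those of Phlpp1 in 15, Nedd4, Grb10 and Cav1 in 14, Pik3ca in 12, Pik3r3 in 11 and Trib3 in 9. On the relative scale Igf2r and Sgk1 passed the test in 2 of 18, DESeq2 and the fit without KO replicate 1. Htra1, uncalled, ran from −0.32 to 0.31 in the deposited values with each library left out.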
